A study of Rattus norvegicus with 23 samples.

Results

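Cadherins and protocadherins are the adhesion molecules of one superfamily, and they were examined here in RNA of the hippocampal CA3 field of rats. Members were all probe sets of the array to which the platform annotation gives a single gene symbol that begins with Cdh or Pcdh followed by a digit or a small letter. This rule found 50 probe sets of 37 genes, out of 20826 probe sets of 14217 genes with a single symbol. The symbol pattern itself used no measured value, though members and families were chosen with earlier results of these data known. Of the 50 probe sets, 29 from 19 genes lay at a log2 intensity of at least 4 on at least 6 arrays and were tested, and 21 did not reach that level.

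The samples were CA3 tissue, microdissected from the hippocampus of male Long-Evans rats with no treatment, 1 array per animal. Aged impaired rats (n = 8) and aged unimpaired rats (n = 6) were 24 to 26 months old, and young rats (n = 9) were 6 months old. All had been housed singly and scored for spatial learning in the Morris water maze, in which a rat learns where a hidden platform lies, and all were killed some time after that testing. Aged unimpaired rats scored within the range of the young, and aged impaired rats scored worse, so that both aged groups come from one aged cohort split by behaviour. No gene was manipulated in any group. The question put to the families was which members differ with age in CA3 and which differ between aged rats that learned well and aged rats that did not.

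Cadherins bind one another across the gap between cells through calcium-dependent extracellular repeats. Classical cadherins of type I, such as N-cadherin (Cdh2), and of type II, such as Cdh8, Cdh10 and Cdh11, hold their tail to the actin skeleton through catenins, and in the hippocampus several of them sit at synapses on either side of the cleft. Protocadherins lack the catenin-binding tail. Those of the delta class (Pcdh8, Pcdh9, Pcdh10, Pcdh17, Pcdh18, Pcdh19) are single genes, several of which recruit the actin-regulating WAVE complex. The clustered protocadherins of the alpha, beta and gamma clusters lie side by side on one chromosome, and each neuron uses its own combination of promoters, which gives its dendrites and axons a surface identity.

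The promoters of the beta cluster are shown because the 3 clustered genes that could be tested, Pcdhb9, Pcdhb12 and Pcdhb19, all come from it. Each beta gene is a single exon with a promoter of its own. In the clusters these promoters are known to carry a conserved element with a CGCT core, a site for the chromatin-looping factor CTCF. The sequences below come from RefSeq (rat assembly GRCr8), run 5′ to 3′ on the plus strand and cover 250 bases before to 50 bases after the annotated gene start. Capitals mark the 10-base word GGTGGCGCTG, which holds CGCT inside it and was picked as a word shared by many beta promoters. The first 3 genes gave a measurable signal, and the probe sets of Pcdhb21 and Pcdhb6 stayed at the floor of the scale.
Pcdhb9, chr18:29379060-29379359: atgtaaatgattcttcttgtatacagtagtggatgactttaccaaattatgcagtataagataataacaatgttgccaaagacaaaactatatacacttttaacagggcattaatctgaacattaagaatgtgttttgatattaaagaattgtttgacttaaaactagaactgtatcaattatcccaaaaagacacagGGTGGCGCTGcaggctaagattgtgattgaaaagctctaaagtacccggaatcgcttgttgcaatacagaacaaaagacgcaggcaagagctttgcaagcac
Pcdhb12, chr18:29413506-29413805: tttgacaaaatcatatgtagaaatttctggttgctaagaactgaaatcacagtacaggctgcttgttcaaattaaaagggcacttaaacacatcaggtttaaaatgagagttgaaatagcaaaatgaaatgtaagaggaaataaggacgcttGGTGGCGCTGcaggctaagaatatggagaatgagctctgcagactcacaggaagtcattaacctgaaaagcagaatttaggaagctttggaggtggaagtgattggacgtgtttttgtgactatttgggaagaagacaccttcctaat
Pcdhb19, chr18:29478598-29478897: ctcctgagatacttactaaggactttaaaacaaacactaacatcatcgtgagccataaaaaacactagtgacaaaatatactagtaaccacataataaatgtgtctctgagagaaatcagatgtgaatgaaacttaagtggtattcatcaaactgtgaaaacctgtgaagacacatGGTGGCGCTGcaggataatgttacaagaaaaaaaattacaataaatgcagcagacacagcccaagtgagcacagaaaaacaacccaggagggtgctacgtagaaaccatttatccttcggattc
Pcdhb21, chr18:29491969-29492268: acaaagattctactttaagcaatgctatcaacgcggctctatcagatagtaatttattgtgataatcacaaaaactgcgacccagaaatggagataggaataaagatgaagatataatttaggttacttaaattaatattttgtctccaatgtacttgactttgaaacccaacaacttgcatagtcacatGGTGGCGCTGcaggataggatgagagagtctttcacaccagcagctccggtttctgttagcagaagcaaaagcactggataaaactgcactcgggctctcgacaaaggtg
Pcdhb6, chr18:29320141-29320440: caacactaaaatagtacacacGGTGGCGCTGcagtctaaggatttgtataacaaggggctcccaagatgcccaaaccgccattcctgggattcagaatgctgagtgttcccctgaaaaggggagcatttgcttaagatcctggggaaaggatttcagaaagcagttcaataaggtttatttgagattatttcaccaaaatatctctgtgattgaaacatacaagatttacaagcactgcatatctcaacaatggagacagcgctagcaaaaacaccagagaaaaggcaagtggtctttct

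Searched on both strands, GGTGGCGCTG stood in 15 of 19 beta promoters (78.9%), in 0 of 15 gamma promoters, in 0 of 8 delta protocadherin promoters, in 0 of 11 classical cadherin promoters and in 74 of 33469 rat promoters of the same length (0.221%). Because the word was chosen from the beta promoters, its share there is a description. It lay 52 bases before the gene start in Pcdhb9, 98 in Pcdhb12, 74 in Pcdhb19 and 60 in Pcdhb21, but 229 bases before it in Pcdhb6. So the promoters of the 3 measurable genes and of Pcdhb6 and Pcdhb21, at the floor, held the same letters, and those of Pcdhb17 and Pcdhb22 were not searched. The core CGCT alone, with its reverse complement, stood in 84.2% of beta promoters and 60.9% of all. The median GC content was 38.7% in beta promoters and 51.7% over all promoters. Along the chromosome, 22 beta genes follow one another in the RefSeq table. The 3 measurable ones held places 9, 12 and 19, and those with a probe set at the floor, Pcdhb6, Pcdhb17, Pcdhb21 and Pcdhb22, held places 6, 18, 21 and 22.

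The families differed in how many of their genes could be measured in CA3. All 6 delta protocadherin genes had a tested probe set (9 of 9 probe sets). The classical cadherins had a tested probe set for 6 of 12 genes, 1 of 4 in type I (Cdh2) and 5 of 8 in type II (Cdh8, Cdh10, Cdh11, Cdh12 and Cdh22). The clustered protocadherins had one for 3 of 9 genes. Other cadherins had one for 3 of 8 genes (Cdh13, Cdhr2 and Cdhr4), and other protocadherins for 1 of 2 (Pcdh20). On all 23 arrays, 28 of the 29 tested probe sets lay above the filter, the exception being that of Cdh12, on 18 arrays.

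The 18 genes without a tested probe set included many that are known from other tissues. Among them were the E-, P- and M-cadherins of epithelium and muscle (Cdh1, Cdh3, Cdh15), the kidney and intestinal Cdh16 and Cdh17, the photoreceptor Cdhr1, the microvillar Cdhr5, and the partners of the hair cell tip link (Cdh23 and Pcdh15). The type II members Cdh6, Cdh7 and Cdh20 and the clustered Pcdha12, Pcdha13, Pcdhb6, Pcdhb17, Pcdhb21 and Pcdhb22 completed them. Across these and the untested extra probe sets of Cdh2 and Pcdhb12, no array exceeded 3.26 on the log2 scale, and an intensity at the floor does not show that a transcript is missing. For Pcdhb12 the 2 probe sets disagreed, 1 lying at 2.19 to 2.25 on every array and the other between 4.15 and 6.35. Whether the brighter one reads Pcdhb12 alone or also other beta transcripts was not tested.

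**Figure D1:**
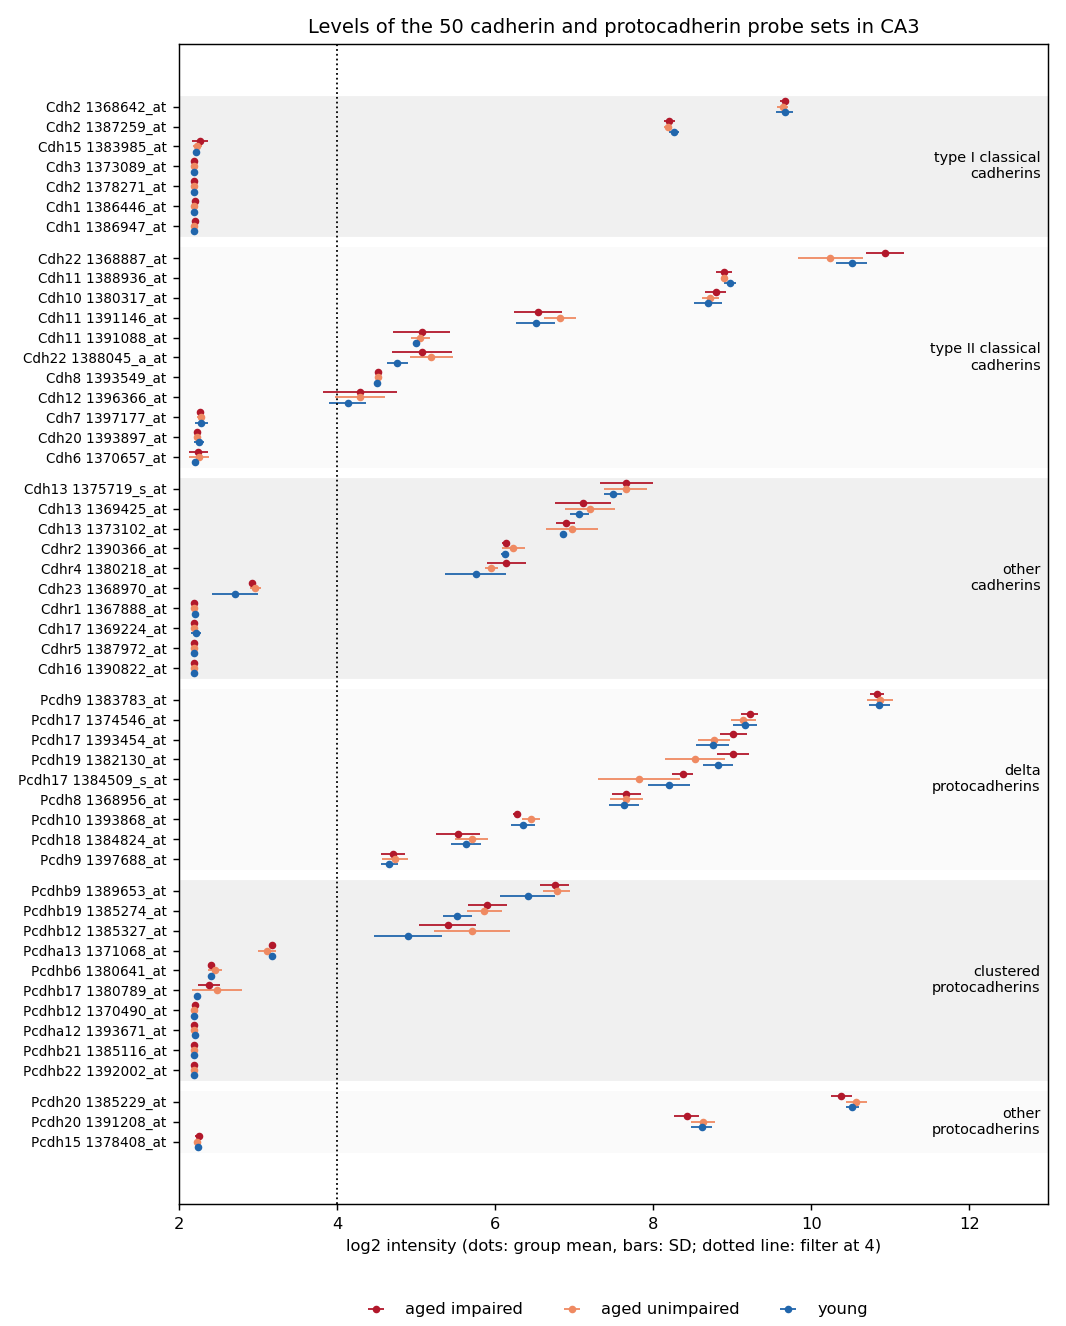
Log2 intensity of the 50 probe sets in aged impaired (n = 8), aged unimpaired (n = 6) and young rats (n = 9), as group means (dots) with SD (bars), arranged by family. The 21 untested probe sets sit at the left near the floor of the scale, and the beta protocadherins Pcdhb9, Pcdhb12 and Pcdhb19 show both aged means to the right of the young mean.

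Intensities of different probe sets are not set against each other, since each depends on its own probes. Within a probe set, the levels of most members were tightly held. N-cadherin, which joins the pre- and postsynaptic membranes of excitatory synapses, had values of 9.57, 9.65 and 9.74 (lowest, median and highest) in aged impaired rats, 9.55, 9.64 and 9.77 in aged unimpaired rats and 9.51, 9.62 and 9.84 in young rats. The 3 groups overlapped fully, and the difference of aged impaired from young rats was 0.00 on the log2 scale (95% interval -0.09 to 0.09, limma adjusted p = 0.987). Its other tested probe set differed from young rats by -0.06 in aged impaired rats (adjusted p = 0.302) and by -0.08 in aged unimpaired rats (adjusted p = 0.265, unadjusted under 0.05). In the mean of both aged groups that probe set gave -0.07 (adjusted p = 0.168, unadjusted under 0.05), with 6 of 14 aged rats below every young rat. The lowest young value there, 8.21, was a repeated one, shared by 10 arrays, 5 of them young. The delta protocadherin Pcdh9 had 10.71, 10.84 and 10.96 in aged impaired rats, 10.68, 10.85 and 11.09 in aged unimpaired rats and 10.66, 10.84 and 11.07 in young rats. Its difference of aged impaired from young rats was -0.02 (interval -0.15 to 0.10, adjusted p = 0.834), and that of aged unimpaired rats 0.01 (interval -0.12 to 0.15, adjusted p = 0.950).

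The synaptic type II cadherin Cdh10 differed by 0.10 between aged impaired and young rats (interval -0.05 to 0.24, adjusted p = 0.393), with a young range of 8.53 to 9.07 that held both aged ranges. Its relative Cdh11, found in neurons and mesenchymal cells, gave differences of -0.08, 0.03 and 0.07 for 3 probe sets, with adjusted p-values of 0.198, 0.919 and 0.724. T-cadherin (Cdh13), which is anchored by a lipid and has no tail inside the cell, gave 0.17, 0.05 and 0.03 for 3 probe sets, with adjusted p-values of 0.365, 0.842 and 0.858. Pcdh8, whose rat form arcadlin is induced by neuronal activity, gave 0.03 (interval -0.15 to 0.22, adjusted p = 0.859). None of these 4 genes passed the test in any of the 4 comparisons. Repeated values limit what some of them can show. The third Cdh11 probe set had the same value, 5.0 within 0.005, on 19 of 23 arrays, and that of Cdh8 had 4.5 on 17. In all, 6 of the 29 tested probe sets had 10 or more arrays at 1 value.

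Across the tested members, few passed the test at an adjusted p of at most 0.05, and those that did were all higher in the aged or the aged impaired group. In aged impaired against young rats, 2 of 29 rose (Pcdhb19 and 1 probe set of Cdh22), when 9.76% of all tested probe sets were called. In aged unimpaired against young rats, 1 of 29 rose (Pcdhb12), when 2.06% of all were called. Both shares, 6.90% and 3.45%, lie near the background. In aged impaired against aged unimpaired rats, 1 of 29 rose (Cdh22), when 0.778% of all were called. Taking both aged groups against young, 4 of 29 rose (Pcdhb9, Pcdhb12, Pcdhb19 and the other Cdh22 probe set), when 6.90% of all were called. With limma, 0 members fell in any of the 4, whereas at an unadjusted p under 0.05 there were 2, 3, 5 and 2 lower members and 7, 6, 4 and 5 higher ones, in the order of comparisons just given. Counts at an unadjusted p, here and below, are description only. The share of all tested probe sets under that threshold is not given beside them. The comparisons with young rats share the young arrays.

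Read by family, the clustered protocadherins had the largest median differences from young rats. Their 3 tested probe sets had a median of 0.38 in aged impaired and 0.37 in aged unimpaired rats, each minus young. The 10 probe sets of the classical cadherins had medians of 0.05 and 0.02, and all 14647 tested probe sets had medians of -0.017 and -0.002. In the mean of both aged groups, 3 of 3 clustered probe sets and 1 of 10 classical ones rose, when 6.90% of all tested probe sets were called. The 3 clustered probe sets are all of beta genes and do not stand for the alpha and gamma clusters. Among probe sets that list many cluster genes, 2 of alpha genes gave -0.19 and -0.16 in that comparison (adjusted p = 0.00749 and 0.00919). The gamma ones gave 0.12 and 0.01 without a call. The delta protocadherins had medians of 0.05 and 0.02 with 0 of 9 called by limma in any comparison (1, 2, 4 and 0 at an unadjusted p under 0.05). These family figures are counts and medians with no test of the difference between families, and a family of 3 probe sets is small. Over the whole array, aged impaired rats had 568 higher and 861 lower calls, and after median centring of each array there were 768 higher calls of 1536.

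**Figure D2:**
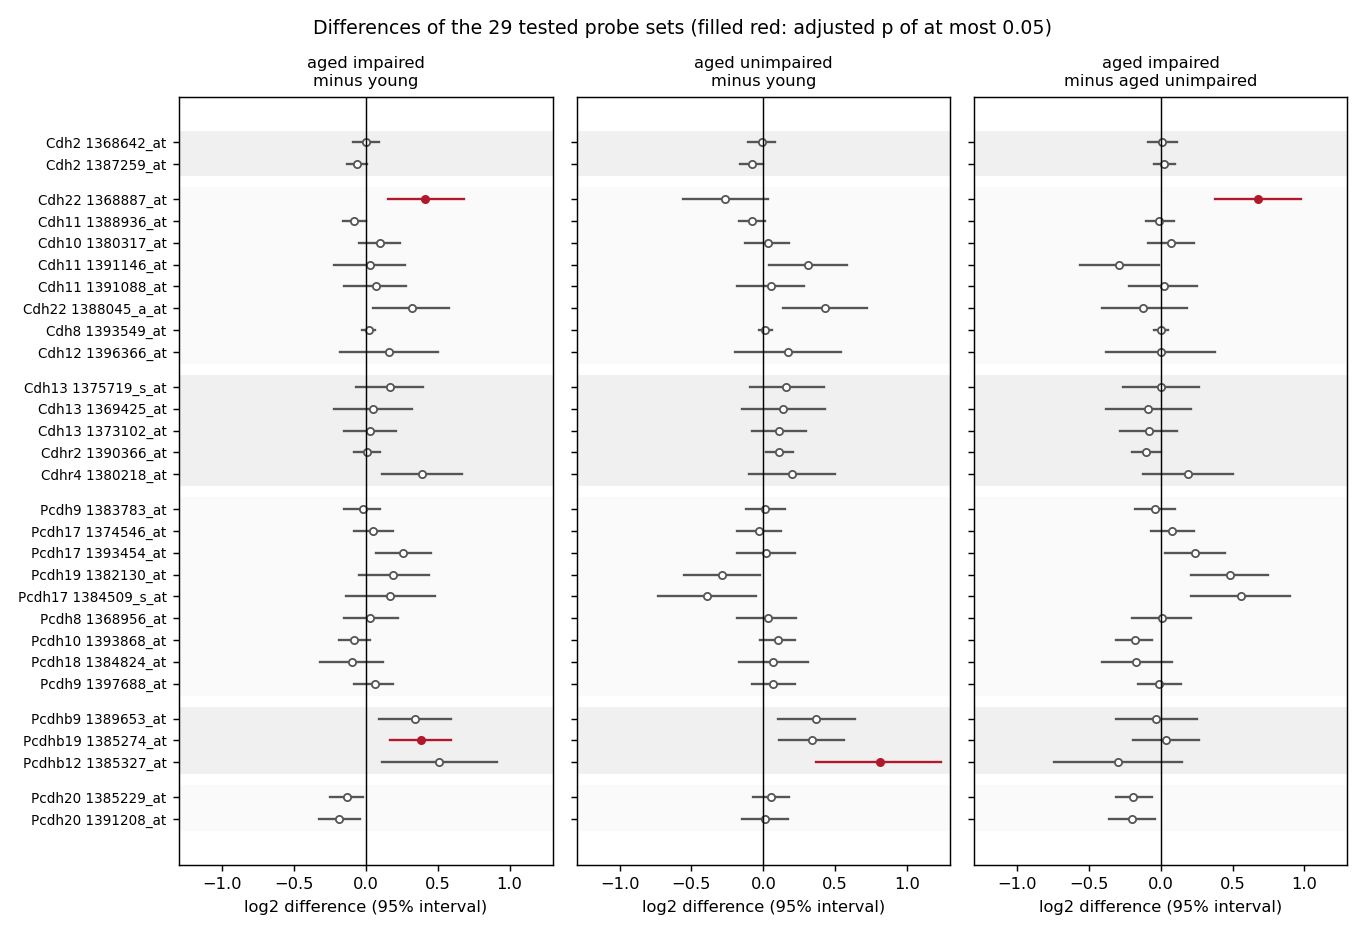
Log2 difference with its 95% interval for the 29 tested probe sets, grouped by family, in aged impaired minus young (left), aged unimpaired minus young (middle) and aged impaired minus aged unimpaired rats (right), with called probe sets in red. The 3 beta protocadherins lie right of 0 in the left and middle panels, and Cdh22 1368887_at lies right of 0 in the left and right panels and left of it in the middle one.

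Pcdhb19 was the member whose call was lost least often. Its intensity was 5.69, 5.82 and 6.32 (lowest, median and highest) in aged impaired rats, 5.69, 5.77 and 6.22 in aged unimpaired rats and 5.17, 5.60 and 5.69 in young rats. The aged values began where the young values ended, and 8 of 14 aged rats lay above every young rat. Pcdhb19 rose by 0.38 ± 0.10 (SE) in aged impaired against young rats, a 1.3-fold difference (limma adjusted p = 0.0206), and the aged unimpaired difference was 0.34 ± 0.11 (adjusted p = 0.109). In the mean of both aged groups it rose by 0.36 ± 0.09 (adjusted p = 0.0179). Between aged impaired and aged unimpaired rats the difference was 0.04 (interval -0.19 to 0.27, adjusted p = 0.916). Its signal is low, and 8 arrays shared 1 value of 5.69, 4 of aged impaired, 2 of aged unimpaired and 2 of young rats.

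Pcdhb12 had the largest difference from young rats among the 29 tested probe sets. Its measurable probe set gave 4.88, 5.39 and 6.03 in aged impaired rats, 5.23, 5.65 and 6.35 in aged unimpaired rats and 4.15, 4.92 and 5.68 in young rats. The groups overlapped, with 3 of 6 aged unimpaired rats and 1 of 8 aged impaired rats above every young rat. It rose by 0.81 ± 0.21 in aged unimpaired against young rats, a 1.75-fold difference (adjusted p = 0.0448), and in the mean of both aged groups by 0.66 ± 0.17 (adjusted p = 0.0232). The aged impaired difference was 0.51 ± 0.19 (adjusted p = 0.0935), and aged impaired minus aged unimpaired rats gave -0.30 (interval -0.74 to 0.15, adjusted p = 0.562), so the aged groups were not told apart. The call in aged unimpaired rats was lost in 17 of 23 fits that left out 1 animal, with adjusted p-values up to 0.106.

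Pcdhb9 likewise lay higher in both aged groups than in young rats, with a smaller difference. It had 6.47, 6.75 and 6.97 in aged impaired rats, 6.62, 6.75 and 7.0 in aged unimpaired rats and 5.69, 6.48 and 6.84 in young rats. The medians of the aged groups were equal, and 6 of 14 aged rats lay above every young rat. Against young rats, the aged impaired difference was 0.34 ± 0.12 (adjusted p = 0.0719) and the aged unimpaired difference 0.37 ± 0.13 (adjusted p = 0.144), while in the mean of both Pcdhb9 rose by 0.36 ± 0.11 (adjusted p = 0.0449). That call was lost in 16 of 23 fits without 1 animal, and without young animal 2 the difference was 0.27 (adjusted p = 0.0733).

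Whether the 3 beta genes were high in the same animals was examined after each group's mean was removed, and no relation passed the test. Pearson's r over the 23 animals was -0.03 for Pcdhb9 and Pcdhb12 (Spearman's rho -0.08), 0.11 for Pcdhb9 and Pcdhb19 (rho 0.21) and -0.14 for Pcdhb12 and Pcdhb19 (rho -0.05). Permutation p-values for r were 0.875, 0.629 and 0.515, and 0.875, 0.754 and 0.754 after adjustment over the 6 relations computed. Without the 2 animals farthest from the median, r was -0.05, -0.03 and 0.03. Within groups r ran from -0.54 (Pcdhb12 and Pcdhb19 in aged unimpaired rats) to 0.56 (Pcdhb9 and Pcdhb19 in aged impaired rats). Beta genes are similar to one another in sequence, and how far a probe set hybridises with its neighbours' transcripts was not tested.

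**Figure D3:**
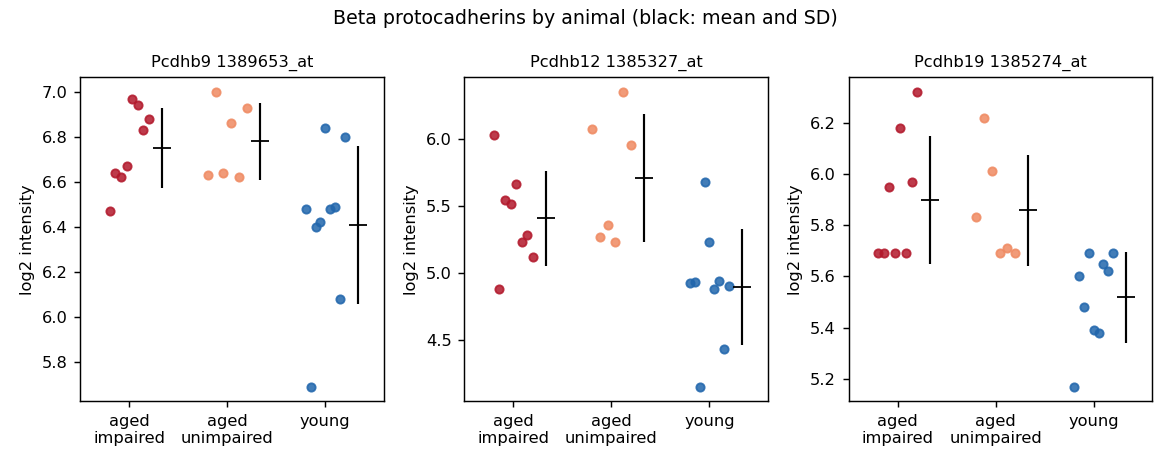
Log2 intensity of Pcdhb9, Pcdhb12 and Pcdhb19 in each animal, in aged impaired (n = 8), aged unimpaired (n = 6) and young rats (n = 9), with the group mean and SD in black. The aged values of Pcdhb19 begin at 5.69, where the young values end, and those of Pcdhb12 and Pcdhb9 overlap the young range.

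Microglial markers moved in the same direction as the beta protocadherins. Of 13 such markers 9 were measured, and 6 rose in aged impaired and 6 in aged unimpaired rats, each against young. The log2 of their summed level ran from 11.23 to 11.88 in aged impaired rats, from 11.19 to 11.60 in aged unimpaired rats and from 10.64 to 10.96 in young rats, with no overlap between aged and young. Cx3cr1, Itgam and Cd68 were among those not measured. Of 11 astrocyte markers 10 were measured, and 3 rose in aged impaired rats and 2 in aged unimpaired rats. CA3 pyramidal markers went the other way, with 4 of 9 lower and 1 higher in aged impaired rats and 0 called in aged unimpaired rats. Beside these counts, 9.76% of all tested probe sets were called in aged impaired and 2.06% in aged unimpaired rats, each against young. The part of these markers in the Pcdhb9, Pcdhb12 and Pcdhb19 differences was not tested, and in tissue RNA fewer cells of a type and less RNA per cell cannot be told apart.

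Cells next to CA3 were represented unevenly across animals. The mean of 6 CA1 markers ran from 6.50 to 8.22 in aged impaired rats, from 6.87 to 7.36 in aged unimpaired rats and from 5.69 to 7.97 in young rats. With that mean as a covariate, Pcdhb19 still rose against young in aged impaired rats and in the mean of both aged groups, while the Pcdhb9 call ended at an adjusted p of 0.0572. The calls of Cdh22 1368887_at in aged impaired against young rats and of Cdh22 1388045_a_at in both aged groups ended as well. Pcdhb12 and Cdhr4 were then called as higher in aged impaired against young rats. The mean of 9 CA3 markers ran from 9.48 to 9.89 in aged impaired rats, from 9.67 to 9.80 in aged unimpaired rats and from 9.78 to 10 in young rats. CA3 markers thus gave a clear signal on every array, although Iyd, Coch and Hs3st4 were not measured. The mean of 4 CA2 markers ran from 9.25 to 9.43 in aged impaired and from 9.50 to 9.68 in aged unimpaired rats, without overlap. In young rats it ran from 9.38 to 9.62. Of the 4, 2 fell in aged impaired and 1 rose in aged unimpaired rats against young. Between the aged groups, 1 was lower in aged impaired rats. Over all probe sets 9.76%, 2.06% and 0.778% were called. The part of CA2 cells in the member differences was not tested. Endothelial and mural markers, which bear on Cdh13 as a gene that vessels also use, ranged from 6.40 to 6.79 in aged impaired rats, 6.42 to 6.62 in aged unimpaired rats and 6.44 to 6.84 in young rats, with 0 of 8 called by limma in any comparison.

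Probe sets that list many genes of the clusters at once are not members, because no single gene can be read from them. The 2 that list 15 alpha genes each both fell in aged impaired against young rats. The first had 9.53, 9.60 and 9.79 in aged impaired rats, 9.69, 9.76 and 9.95 in aged unimpaired rats and 9.78, 9.89 and 10.08 in young rats. It fell by 0.26 ± 0.05 on the log2 scale (adjusted p = 0.00148), with 7 of 8 aged impaired rats below every young rat. The second fell by 0.21 ± 0.04 (adjusted p = 0.00271). Their aged unimpaired differences were -0.11 each, with adjusted p-values of 0.236 and 0.197. Taken over both aged groups, they fell against young rats by 0.19 ± 0.04 (adjusted p = 0.00749) and by 0.16 ± 0.04 (adjusted p = 0.00919), with 11 and 10 of 14 aged rats below every young rat. Between the aged groups they gave -0.14 and -0.10, with adjusted p-values of 0.161 and 0.276. A probe set that lists 14 gamma genes rose by 0.41 ± 0.13 in aged impaired against young rats (adjusted p = 0.0466). Its difference from young was -0.17 in aged unimpaired rats and 0.12 in the mean of both aged groups, without a call. Aged impaired minus aged unimpaired rats gave 0.58 ± 0.14 for it (adjusted p = 0.0544), also without a call. Another probe set that lists 13 gamma genes differed by 0.02 in aged impaired against young rats (adjusted p = 0.825).

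Cdh22 was the one member called between the aged groups. Cdh22, a type II cadherin first described in rat pituitary and brain, is read by 2 tested probe sets. Probe set 1368887_at had 10.59, 10.94 and 11.24 in aged impaired rats, 9.55, 10.29 and 10.65 in aged unimpaired rats and 10.10, 10.47 and 10.75 in young rats. In this probe set 6 of 8 aged impaired rats lay above every aged unimpaired rat, and 6 of 8 above every young rat. It rose by 0.68 ± 0.14 in aged impaired against aged unimpaired rats, a 1.6-fold difference (limma adjusted p = 0.0381), and by 0.41 ± 0.13 against young rats (adjusted p = 0.0455). The aged unimpaired difference from young was -0.27 ± 0.14 (adjusted p = 0.347).

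The other Cdh22 probe set, 1388045_a_at, gave another pattern. It had 4.68, 4.91 and 5.76 in aged impaired rats, 4.91, 5.14 and 5.57 in aged unimpaired rats and 4.59, 4.70 and 4.93 in young rats. Both aged groups lay above young rats in their medians, with the mean of both rising by 0.37 ± 0.11 (adjusted p = 0.0488), and aged impaired minus aged unimpaired rats gave -0.12 (interval -0.41 to 0.18, adjusted p = 0.765). The probe sets of this gene thus differed in sign between the aged groups. The second lies low on the scale, with 9 of 23 arrays at 1 value of 4.91, 5 of them aged impaired, 2 aged unimpaired and 2 young.

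A technical measure of the arrays was set beside the level of Cdh22 1368887_at, and their relation did not pass the test after adjustment. The gap between the control rows named GAPDH 5 and GAPDH M had 2.02, 2.15 and 2.27 in aged impaired rats, 2.12, 2.30 and 2.39 in aged unimpaired rats and 2.08, 2.20 and 2.46 in young rats. Over the 23 animals, with group means removed, the level of Cdh22 1368887_at went with the gap at r = -0.41 (permutation p = 0.0497, adjusted over 6 relations 0.195, Spearman's rho -0.35 with p = 0.105). Without the 2 animals farthest from the median r was -0.34, and within groups it was -0.42 in aged impaired rats, -0.71 in aged unimpaired rats and -0.16 in young rats. With the gap as a covariate, aged impaired minus aged unimpaired rats gave 0.51 for Cdh22 (adjusted p = 0.457), and the count of all probe sets called in that comparison was 0 instead of 114. The gap itself had means of 2.14 in aged impaired and 2.28 in aged unimpaired rats, so gap and group cannot be fully told apart in that fit. Without aged impaired animals 1 and 2 together the Cdh22 difference was 0.60 (adjusted p = 0.0943), and without aged unimpaired animal 6 it was 0.54 (adjusted p = 0.0892).

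Pcdh19 and Pcdh17, both delta protocadherins, had the same order of group means as Cdh22 1368887_at (Pcdh17 on 2 of its 3 probe sets, not on 1393454_at), without passing the test. Pcdh19, which is mutated in a human epilepsy that affects mainly girls, had 8.75, 8.95 and 9.37 in aged impaired rats, 7.84, 8.62 and 8.90 in aged unimpaired rats and 8.58, 8.81 and 9.12 in young rats. Aged impaired minus aged unimpaired rats gave 0.48 ± 0.13 (adjusted p = 0.0763), with 5 of 8 aged impaired rats above every aged unimpaired rat. Its aged impaired difference from young was 0.19 (adjusted p = 0.303) and its aged unimpaired difference -0.29 (adjusted p = 0.253).

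Pcdh17, which acts in axon growth and in the gathering of synaptic vesicles in mice, was read by 3 probe sets that differed in size. Probe set 1384509_s_at had 8.22, 8.35 and 8.55 in aged impaired rats, 7.01, 7.84 and 8.37 in aged unimpaired rats and 7.67, 8.17 and 8.55 in young rats. The spread was widest in aged unimpaired rats (SD 0.52, against 0.13 in aged impaired rats), and aged impaired minus aged unimpaired rats gave 0.56 ± 0.17 (adjusted p = 0.101). The other probe sets gave 0.24 (1393454_at, adjusted p = 0.250) and 0.08 (1374546_at, adjusted p = 0.669). The first and second of these 3 were designed on the same source sequence. Aged unimpaired animal 4 was the lowest of its group on all 3 Pcdh17 probe sets and on Pcdh19, and animal 6 was the lowest on Cdh22 1368887_at. With the array gap, Pcdh19 had r = -0.36 (permutation p = 0.0934, rho -0.31) and Pcdh17 1384509_s_at r = -0.36 (p = 0.0976, rho -0.44), each 0.195 for r after adjustment over the 6 relations. Without the 2 farthest animals r was -0.18 for Pcdh19 and -0.26 for Pcdh17.

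**Figure D4:**
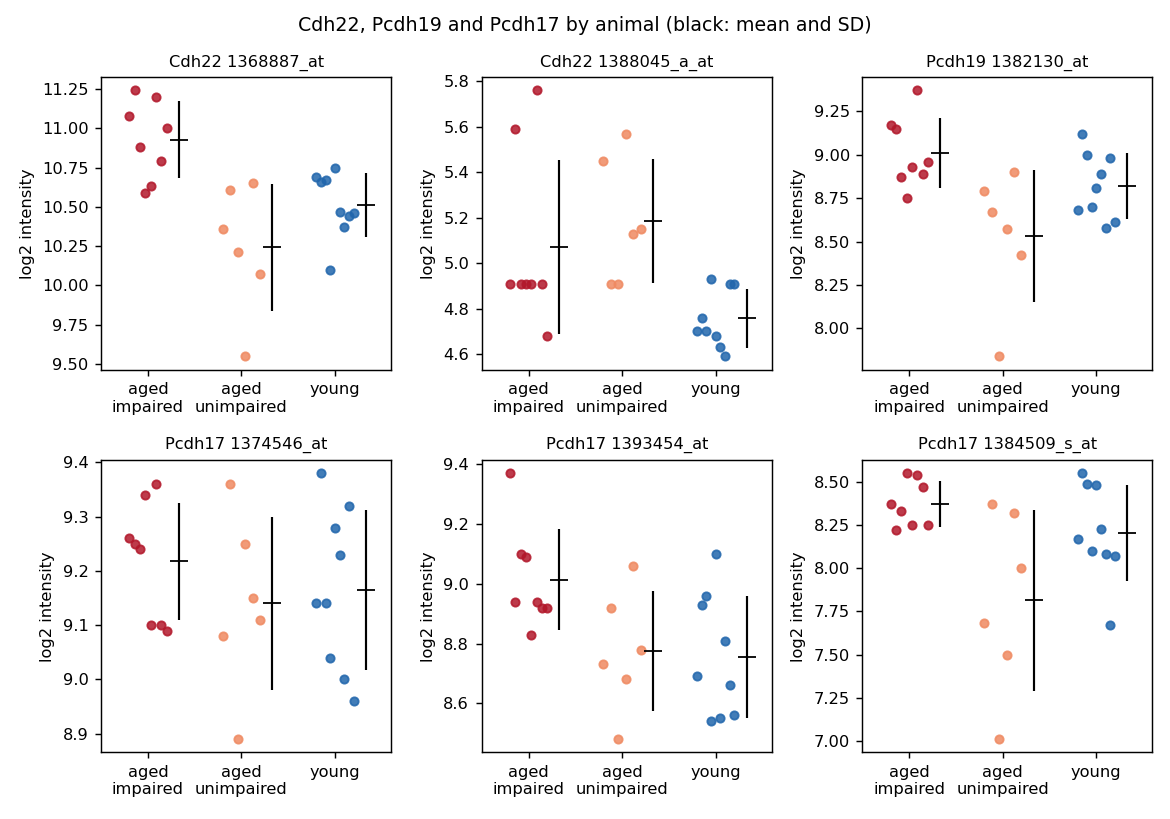
Log2 intensity of the Cdh22, Pcdh19 and Pcdh17 probe sets in each animal, in aged impaired (n = 8), aged unimpaired (n = 6) and young rats (n = 9), with the group mean and SD in black. On Cdh22 1368887_at the aged impaired values run from 10.59 to 11.24 and the aged unimpaired values from 9.55 to 10.65, so their ends overlap. On Cdh22 1388045_a_at the aged unimpaired range lies within the aged impaired range.

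A few members leaned lower in aged impaired rats, none past the test. Pcdh20, a protocadherin of neurons that falls outside the delta class, had 10.19, 10.39 and 10.56 in aged impaired rats, 10.44, 10.54 and 10.81 in aged unimpaired rats and 10.38, 10.56 and 10.60 in young rats on its first probe set. The difference of aged impaired from young rats was -0.13 ± 0.06 (adjusted p = 0.124), with 4 of 8 rats below every young rat. Its second probe set gave -0.19 ± 0.07 (adjusted p = 0.0951), also with 4 of 8 below. Against aged unimpaired rats the 2 probe sets gave -0.19 (adjusted p = 0.140) and -0.20 (adjusted p = 0.220). Pcdh10 is a delta protocadherin that acts in synapse elimination in mice. It gave -0.18 ± 0.06 between aged impaired and aged unimpaired rats (adjusted p = 0.144), with 7 of 8 aged impaired rats below every aged unimpaired rat. Of these, 3 lay at 6.29, just under the lowest aged unimpaired value. That 6.29 was a repeated value, shared by 7 arrays, 4 of them young and 0 aged unimpaired. The Pcdh10 difference of aged impaired from young rats was -0.08 (adjusted p = 0.374), with 0 of 8 below every young rat.

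The remaining named members lay between these. Cdhr4, a cadherin-related gene of which little is known, gave 0.39 ± 0.13 in aged impaired against young rats (adjusted p = 0.0655). Its young values spread from 5.0 to 6.15, against 5.89 to 6.53 in aged impaired and 5.83 to 6.08 in aged unimpaired rats, and without young animal 9 the adjusted p was 0.0457. Pcdh18 gave -0.10 in aged impaired against young rats (interval -0.32 to 0.12, adjusted p = 0.577). One Cdh11 probe set, 1391146_at, had medians of 6.65 in aged impaired rats, 6.79 in aged unimpaired rats and 6.63 in young rats, and aged impaired minus aged unimpaired rats gave -0.29 (adjusted p = 0.308). Neither Pcdh18 nor this Cdh11 probe set passed the test in any comparison.

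The catenins, which tie classical cadherins to actin, are given from a list of 15 genes, of which 12 were measured, each by its brightest probe set. In aged impaired against young rats 2 rose (Pkp4 and Vcl) and 1 fell (Ctnna2), when 9.76% of all tested probe sets were called. In aged unimpaired against young rats 1 rose (Pkp4), when 2.06% of all were called, and with limma 0 of 12 were called between the aged groups, 0 also at an unadjusted p under 0.05. The list's median difference was -0.04 in aged impaired and -0.01 in aged unimpaired rats, close to -0.017 and -0.002 over all probe sets.

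Plakophilin 4 (Pkp4), an armadillo protein of junctions, had 11.87, 12.00 and 12.24 in aged impaired rats, 11.90, 11.95 and 12.24 in aged unimpaired rats and 11.50, 11.72 and 11.89 in young rats. All 6 aged unimpaired rats and 6 of 8 aged impaired rats lay above every young rat. It rose by 0.31 ± 0.06 in aged impaired rats (adjusted p = 0.00438) and by 0.28 ± 0.07 in aged unimpaired rats (adjusted p = 0.0302). The neuronal alpha-catenin Ctnna2, which steadies dendritic spines in mice, had 9.31, 9.41 and 9.53 in aged impaired rats, 9.30, 9.45 and 9.65 in aged unimpaired rats and 9.50, 9.62 and 9.71 in young rats. It fell by 0.20 ± 0.05 on the log2 scale in aged impaired rats (adjusted p = 0.00894), with 7 of 8 below every young rat, and the aged unimpaired difference was -0.16 ± 0.05 (adjusted p = 0.0997).

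Beta-catenin (Ctnnb1), the link between the cadherin tail and alpha-catenin, depended on the probe set and is named here after its values were seen. Probe set 1369733_at had 7.92, 8.13 and 8.48 in aged impaired rats, 7.98, 8.26 and 8.39 in aged unimpaired rats and 8.39, 8.65 and 8.74 in young rats. It fell by 0.41 ± 0.07 in aged impaired rats (adjusted p = 0.00176) and by 0.39 ± 0.08 in aged unimpaired rats (adjusted p = 0.0118), with 12 of 14 aged rats below every young rat. The other probe sets gave 0.07 (1373067_at, adjusted p = 0.531) and -0.06 (1373470_at, adjusted p = 0.354) in aged impaired rats. Vinculin (Vcl), an actin-binding partner of alpha-catenin, likewise rose by 0.39 ± 0.10 in aged impaired rats on its brightest probe set (adjusted p = 0.0139) and differed by 0.07 on the other (adjusted p = 0.646). The second Pkp4 probe set rose by 0.42 ± 0.11 in aged impaired rats (adjusted p = 0.0172) and differed by 0.09 in aged unimpaired rats (adjusted p = 0.755). Between the aged groups that probe set gave 0.34 ± 0.12 (adjusted p = 0.173, unadjusted under 0.05), with 6 of 8 aged impaired rats above every aged unimpaired rat.

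**Figure D5:**
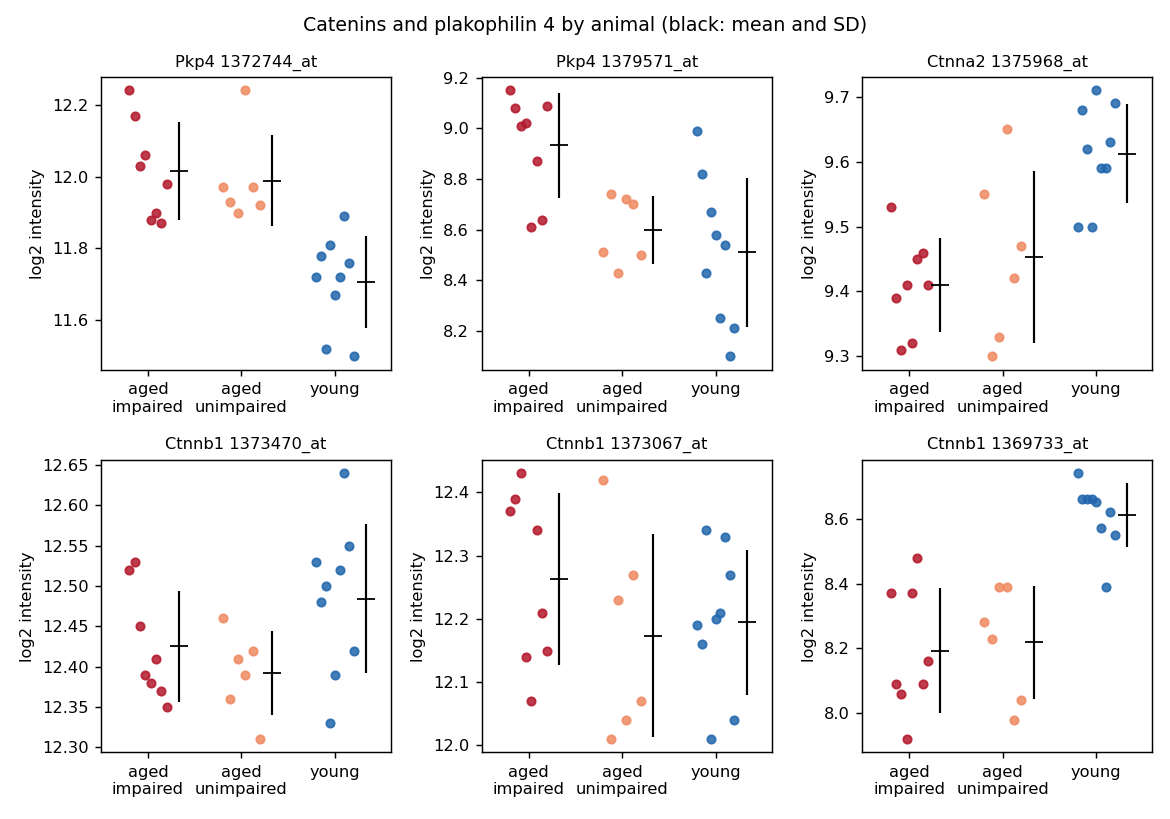
Log2 intensity of Pkp4, Ctnna2 and the 3 Ctnnb1 probe sets in each animal, in aged impaired (n = 8), aged unimpaired (n = 6) and young rats (n = 9), with the group mean and SD in black. The means of Pkp4 1372744_at are higher and those of Ctnna2 and Ctnnb1 1369733_at lower in both aged groups than in young rats. Aged and young values overlap in part on each. Pkp4 1379571_at is called as higher in aged impaired rats only, and the other Ctnnb1 probe sets are not called.

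Few of the other genes around the families were called. Of 21 further superfamily genes (the Fat, Dachsous, Celsr and calsyntenin genes, the desmosomal cadherins and the like), 9 were measured and limma called 0 in any comparison, against 3, 2, 1 and 4 at an unadjusted p under 0.05. The synaptic Clstn1 had group means of 12.47 in aged impaired rats, 12.47 in aged unimpaired rats and 12.50 in young rats. Of 18 genes that cleave cadherins or control them, 13 were measured and limma called 0, against 2, 2, 2 and 1 at an unadjusted p under 0.05. Dimmer probe sets of that list did pass in aged impaired against young rats. Zeb2, a repressor of E-cadherin, was higher by 0.17 ± 0.05 (adjusted p = 0.0374) and by 0.38 ± 0.11 (adjusted p = 0.0303) on 2 of its 4 probe sets. In aged unimpaired against young rats the first of these was higher by 0.24 ± 0.06 (adjusted p = 0.0298) and the second differed by 0.01 (adjusted p = 0.982). The other Zeb2 probe sets gave 0.04 and -0.14 in aged impaired rats, without a call. The phosphatase Ptprf was higher by 0.15 ± 0.04 in aged impaired against young rats on a dimmer probe set (adjusted p = 0.0365), and its brightest one differed by 0.31 without a call. Of 16 effectors of protocadherins, 14 were measured. One, Wasf1, the WAVE subunit of neurons, fell by 0.15 ± 0.04 in aged impaired against young rats (adjusted p = 0.0230), when 9.76% of all were called. At an unadjusted p under 0.05, 4 effectors were lower in aged impaired and 1 higher in aged unimpaired rats against young. Between the aged groups 3 were lower in aged impaired rats. The list's median was -0.07 in aged impaired against young rats and -0.08 between the aged groups, against -0.017 and -0.02 over all. Ptk2b gave -1.38 and -1.50 there without a call, with an SD of 2.22 in aged impaired rats. A dimmer probe set of the sorting nexin Snx27 rose by 0.46 ± 0.13 in aged impaired against young rats (adjusted p = 0.0259), and the other 3 Snx27 probe sets differed by 0.00 to 0.13 without a call. Of 14 regulators of the clustered promoters, 11 were measured and the cohesin loader Nipbl rose, by 0.76 ± 0.23 in aged impaired against young rats (adjusted p = 0.0350) and by 1.10 ± 0.25 against aged unimpaired rats (adjusted p = 0.0418). Over all tested probe sets 9.76% and 0.778% were called in these comparisons. Nipbl had 5.91, 6.52 and 7.15 in aged impaired rats, 4.49, 5.34 and 6.75 in aged unimpaired rats and 5.16, 5.79 and 6.12 in young rats. The other Nipbl probe set, whose median was 5.62 in all 3 groups, gave 0.05 in aged impaired against young rats (adjusted p = 0.413) and 0.06 against aged unimpaired rats (adjusted p = 0.524). The boundary factor Ctcf and the other measured regulators were not called.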

How the data were processed

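RNA of CA3 was hybridised to Affymetrix Rat Genome 230 2.0 arrays, 1 per animal, per the labels' protocols. The deposited values are log2 intensities that the authors obtained with GCRMA, per the submitters' processing notes, whose version is not given in the sources used here. GCRMA corrects background from probe sequence, brings arrays to a common distribution and leaves dim probe sets at a floor, which compresses small differences there. The table held 31099 probe sets on 23 arrays, from 2.195 to 14.848, with array medians of 3.388 to 3.458 and no identical arrays. Arrays give no read depth, and their number limits the precision.

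After 57 control probe sets were left out, the 14647 of 31042 probe sets that reached log2 4 or more on 6 or more arrays were fitted with limma 3.58.1 in R 4.3.3. The fit took all 23 arrays with 1 mean per group. Its two-sided moderated tests had 20 residual and 2.35 prior degrees of freedom and were adjusted by Benjamini-Hochberg over all tested probe sets, for 4 comparisons. Differences are given as the first-named group minus the other, and a call needed an adjusted p no higher than 0.05. The code was tested on simulated data. Relations between probe sets used 100000 permutations over animals.

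Genes were named through the platform annotation, which is older than the current RefSeq table, and 35 of the 37 members matched that table (GRCr8) by the same symbol. Promoters were found for 25. Families and lists of genes were written by hand, and members, families and lists were chosen with earlier results of these data known. Named members were those called in any comparison, the 3 with the highest mean level in each family, the 3 largest positive and 3 largest negative differences in each pairwise comparison, and genes whose probe sets disagree in sign. A few values of other members, such as Pcdh10, are given outside this rule. From the lists of other genes, called genes were named. The gap between 2 control rows was used as a measure of the arrays only, as the names of such rows may not match their targets. Alternatives covered the filter, scaling, weights, prior, covariates, the replicate block and single animals left out.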

Additional observations from a re-analysis of the deposited data

Results flagged for a closer look

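In the 66 groups of the 22 named tested probe sets that were examined, 4 had a single animal far from the rest of its group, where chance flags about 1 in 20 groups. On Cdh13 1373102_at, aged unimpaired animal 6 lay at 7.62, with the nearest of its group at 6.96. On Pcdh18, aged unimpaired animal 2 lay at 6.12 and the nearest at 5.65. On Pcdh20 1385229_at, aged unimpaired animal 1 lay at 10.81 and the nearest at 10.58, and on Pcdh20 1391208_at, young animal 7 lay at 8.92 and the nearest at 8.67. None of these 3 genes was called in any comparison.

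The difference of Cdh22 1368887_at from young rats was not the same in both aged groups. Aged impaired minus aged unimpaired rats gave 0.68 on the log2 scale, which is the test of that difference itself (limma adjusted p = 0.0381).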

How the results depend on the processing

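The 23 member differences that were called or among the largest of their comparison were refitted under 12 other settings and in 23 fits without 1 animal, and none of them changed sign. Differences near 0, such as those of Cdh2 and Pcdh9, were not followed in this way. The member calls were 2 in aged impaired against young, 1 in aged unimpaired against young, 1 between the aged groups and 4 in both aged groups against young. With no filter, which adds tests at the floor, they were 0, 0, 0 and 1. With the replicate number as a block they were 1, 0, 0 and 2. Same-numbered animals did not deviate together (median r -0.01 over 20 pairs, range -0.14 to 0.13), and 3 of 22 animals correlated best with their own number. No deviation shared by number was thus seen, which does not settle whether the numbers pair the animals. With the control row gap as covariate the counts were 1 in aged impaired and 0 in aged unimpaired rats against young, and 0 between the aged groups. With the CA1 mean as covariate they were 2 in aged unimpaired and 2 in both aged groups against young. Array weights gave 1 in aged impaired against young, and quantile normalization 2 between the aged groups. A fit of only the 2 aged groups gave 0. Without aged impaired animals 1 and 2, a setting chosen after seeing the data, the counts were 1 in aged impaired against young and 0 between the aged groups. The cause was not tested.

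Leaving out each animal in turn gave 1 to 4, 0 to 1, 0 to 3 and 1 to 4 calls. The Cdh22 1368887_at call between the aged groups ended without any of aged impaired animals 1, 2, 3, 6 and 8 or aged unimpaired animals 1, 4, 6 and 8 (adjusted p 0.0588 to 0.0983). Its call against young rats held only without aged impaired 4 or 5, aged unimpaired 2, 6 or 7, or young 1 or 5 (otherwise up to 0.0919). The Pcdhb12 call in aged unimpaired rats held only without aged impaired 1 or 2, aged unimpaired 2 or 6, or young 4 or 5 (otherwise up to 0.106), and its call in both aged groups ended without young 3 (0.0537). The Pcdhb9 call held only without aged impaired 1, 2 or 3, aged unimpaired 1 or 7, or young 5 or 9 (otherwise up to 0.0862). The Cdh22 1388045_a_at call held only without aged impaired 1, 6, 7 or 8 or aged unimpaired 2 or 4 (otherwise up to 0.0846). The Pcdhb19 call against young rats ended only with no filter (0.0544) in aged impaired rats.

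Over all probe sets, calls in aged impaired against young were 1429, and 768 with no filter, 870 with the block and 937 with the gap. In aged unimpaired against young they were 302, and 126, 86 with the block and 672 with array weights. Between the aged groups they were 114, and 2 with no filter, 0 with the block, the gap or only those groups, 4 without aged impaired 1 and 2, 181 with quantile normalization and 222 with array weights. In both aged groups against young they were 1010, and 509 with no filter and 527 with the block. Signal near the floor limits Pcdhb12, Pcdhb19 and the second Cdh22 probe set, and cross-hybridisation among beta genes was not tested.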
